A study of Rattus norvegicus with 15 samples.

Results

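The genes described here are 10 members of the transforming growth factor beta (TGF-beta) pathway in the rat mammary gland: the ligands Tgfb1, Tgfb2 and Tgfb3, the receptors Tgfbr1, Tgfbr2 and Tgfbr3, and the signal transducers Smad2, Smad3, Smad4 and Smad7. They were chosen by gene symbol, which found 23 probe sets for the 10 genes among 31042 probe sets and 14233 named genes. Each gene is given first by the probe set with the highest mean over the 15 arrays, here called its brightest, and all 10 brightest probe sets had a present call (signal told from background by the MAS5 algorithm) on 15 of 15 arrays. Of the 23 probe sets, 17 were called present on all 15 arrays and 3 on none.

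TGF-beta ligands are secreted in a latent form and, once released, bind the type II receptor, Tgfbr2, which recruits and phosphorylates the type I receptor, Tgfbr1. Tgfbr3, also called betaglycan, is a coreceptor without a kinase that presents ligand, above all TGF-beta2, to the signalling receptors. The activated type I receptor phosphorylates Smad2 and Smad3, which join Smad4 and enter the nucleus, and Smad7 is an inhibitor that targets the active receptor. In the mammary gland of the mouse, TGF-beta restrains growth of the ducts, and Tgfb3 is known for its increase when milk stasis starts involution.

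The study asked which lasting changes a pregnancy leaves in the gland, and set beside it a course of hormones. All 15 animals were female Lewis rats, 3 months old and virgin when they were assigned at random to 3 groups of 5, and all had the left inguinal gland taken in metestrus, after about 49 days of rest, for 1 array each. Rats of the pregnancy group (replicates 1, 2, 3, 7 and 9) carried a pregnancy to term, 21 to 23 days, with sham capsules that held cellulose matrix only, and their pups were killed within 4 to 6 hours of birth, so the gland was not suckled. Rats of the hormone group (replicates 1 to 5) carried 2 silastic capsules for 21 days, 1 with 100 µg of ethynyl estradiol, a synthetic estrogen, and 1 with 30 mg of megesterol acetate, a progestin. Control rats (replicates 1, 2, 4, 5 and 6) had neither exposure and carried sham capsules for 21 days. The pregnancy group therefore stands for gestation without lactation, and the hormone group for continuous release of both steroids. Values are log2 expression after robust multi-array averaging (RMA), so that a difference of 1 is a doubling.

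Arrays were alike in present calls (65.3 to 68.4% of probe sets) and in medians (7.70 to 7.77), and with 5 arrays per group their number sets how precise each value can be. The weights that a fit gave the arrays were not alike and are given below. The luminal epithelium markers, which define the labelled tissue, were present on all 15 arrays for 11 of 11 genes. Tissue makeup differed between arrays of the same group. The mean of 13 measured lymph node markers (of 16 listed), relative to the 15 arrays, spanned -1.09 to 1.76 in the pregnancy group, -1.34 to -0.20 in the hormone group and -1.20 to 2.21 in the control group; none of the 13 was without a present call. Control replicates 1, 4 and 5 lay between 2.09 and 2.21 on that scale and pregnancy replicate 3 at 1.76. The mean of 11 measured skeletal muscle markers (of 13) spanned -1.63 to 2.59, -1.29 to 3.93 and -2.12 to 0.78 in the pregnancy, hormone and control groups, with Myh2 never present. The part of these markers in the results was not tested beyond the fits named below. In whole gland, fewer cells of a type and less RNA per cell cannot be told apart.

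Tgfbr3 and Tgfbr2 had the largest differences after pregnancy among the 10 brightest probe sets (0.70 and 0.55), so the promoters of the receptor genes are shown, with Tgfbr1 as their partner, each from 250 bases before to 50 bases after the annotated start, from RefSeq on the GRCr8 assembly. Capitals mark the GC box, the hexamer GGGCGG or its reverse complement CCGCCC, which is read by Sp1-type factors. All are written 5′ to 3′ on the strand of the gene: Tgfbr1 at chr5:66449148-66449447 (plus strand), Tgfbr2 at chr8:124761420-124761719 (minus strand) and Tgfbr3 at chr14:2634044-2634343 (plus strand).
Tgfbr1: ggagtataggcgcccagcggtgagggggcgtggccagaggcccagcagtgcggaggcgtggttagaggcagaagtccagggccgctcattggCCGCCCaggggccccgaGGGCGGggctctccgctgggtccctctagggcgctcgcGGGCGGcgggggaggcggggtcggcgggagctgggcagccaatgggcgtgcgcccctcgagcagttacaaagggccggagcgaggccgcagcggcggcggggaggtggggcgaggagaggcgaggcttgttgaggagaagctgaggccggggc
Tgfbr2: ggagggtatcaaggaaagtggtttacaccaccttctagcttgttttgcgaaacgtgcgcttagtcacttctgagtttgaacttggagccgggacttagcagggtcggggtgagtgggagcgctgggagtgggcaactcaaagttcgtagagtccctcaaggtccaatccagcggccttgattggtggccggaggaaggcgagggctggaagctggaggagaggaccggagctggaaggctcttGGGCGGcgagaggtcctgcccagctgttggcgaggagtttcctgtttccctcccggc
Tgfbr3: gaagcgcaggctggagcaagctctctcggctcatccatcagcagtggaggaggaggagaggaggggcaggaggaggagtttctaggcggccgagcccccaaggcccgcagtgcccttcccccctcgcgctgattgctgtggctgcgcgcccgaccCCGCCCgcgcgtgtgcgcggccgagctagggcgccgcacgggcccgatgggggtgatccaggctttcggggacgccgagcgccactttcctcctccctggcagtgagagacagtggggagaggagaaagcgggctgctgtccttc
The Tgfbr1 window held 3 GC boxes, and the Tgfbr2 and Tgfbr3 windows held 1 each. The motif was searched on both strands with no other motif overlapping it, and 33.1% of 33469 promoter windows of this length held at least 1, so its occurrence here is a description only. Of the other members, the windows of Smad2 (2 and 5 boxes in 2 windows), Smad3 (1) and Smad7 (2) held GC boxes too, and those of Tgfb1, Tgfb2, Tgfb3 and Smad4 held none. The GC content was 74.7% for Tgfbr1, 59.0% for Tgfbr2 and 69.7% for Tgfbr3, against a median of 51.7% over all windows.

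After pregnancy, 7 of the 10 genes were higher than in control and 3 were lower, but 0 passed an adjusted p of 0.05 (limma, two-sided, Benjamini-Hochberg over 31042 probe sets), where 0.197% of all probe sets passed. The median difference of the 10 genes was 0.27 on the log2 scale, beside 0.02 over all probe sets, of which 54.7% were higher. At an unadjusted p under 0.05 stood 5 of the 10, beside 21.9% of all probe sets. Higher values lay with ligands and receptors, and Smad2 and Smad3 were near 0 (-0.0006 and -0.02). After hormone, 5 genes were higher and 5 lower, with a median of 0.01 (0.03 over all probe sets) and 0 passing, where 0.029% of all passed. Of all probe sets, 58.0% were higher after hormone. At an unadjusted p under 0.05 stood 1 of the 10 genes, beside 20.7% of all. These comparisons share the same 5 control rats. Between the exposures, 9 genes were higher after pregnancy than after hormone and 1 was lower, where 49.3% of all probe sets were higher. The median was 0.20 (-0.0021 over all), and 0 passed, where 0.00322% of all passed. An unadjusted p under 0.05 was held by 2 genes, beside 9.96% of all probe sets. Against control, the mean of both exposures was higher for 6 genes and lower for 4, where 57.3% of all probe sets were higher. There 0 genes passed, beside 0.238% of all, with adjusted p between 0.106 (Tgfbr3) and 0.818 (Smad7).

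**Figure D1:**
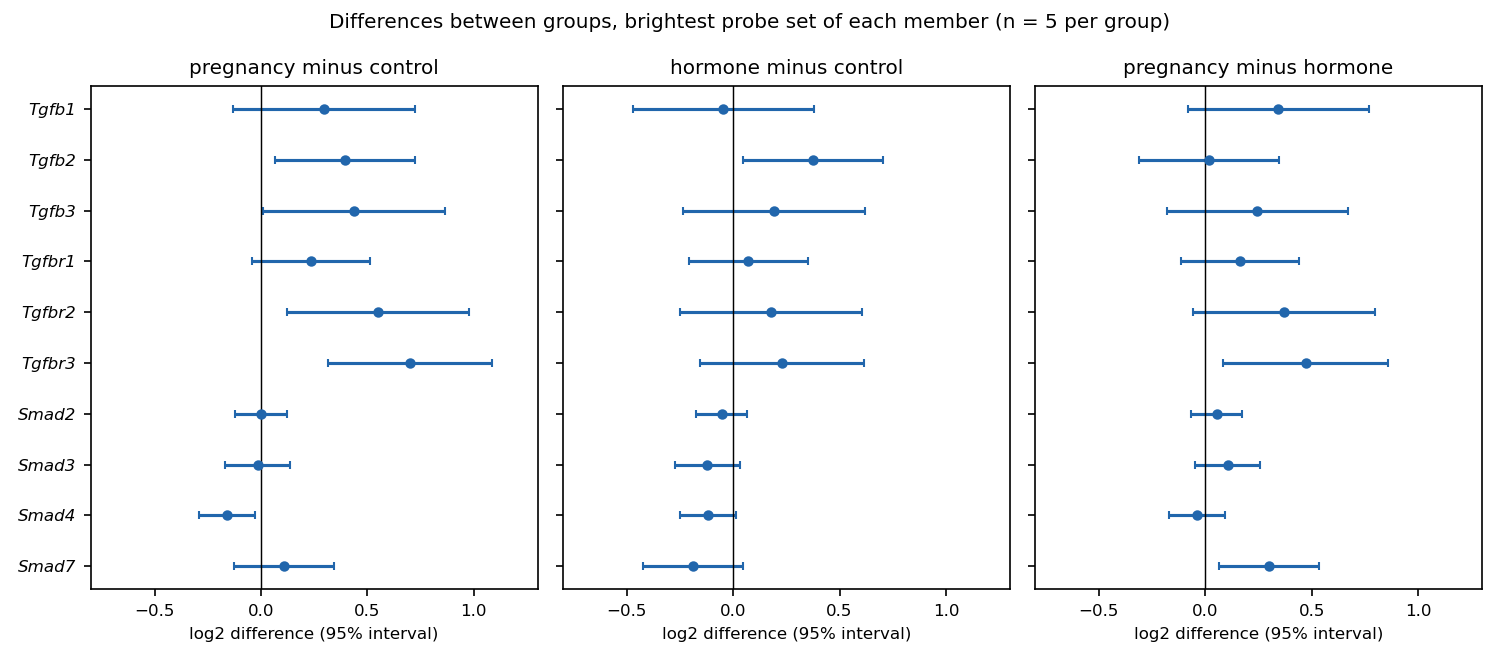
Log2 differences (x axis) of the 10 genes (rows), brightest probe set, in the 3 pairwise comparisons, with 5 rats per group; points are estimates and bars are 95% intervals from limma. After pregnancy the intervals of Tgfb2, Tgfb3, Tgfbr2 and Tgfbr3 lie above 0 and that of Smad4 below it, without adjustment for the number of tests.

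Tgfbr3, the coreceptor, had the largest difference after pregnancy among the brightest probe sets. Probe set 1387484_at read 8.65, 8.28, 8.81, 8.71 and 9.18 in the pregnancy rats, 7.83, 8.56, 8.01, 8.42 and 8.46 in the hormone rats, and 7.76, 8.15, 7.88, 8.48 and 7.87 in the control rats, in the order of replicates given above. In the pregnancy group 4 of 5 rats lay above every control, with replicate 2 below control replicate 5, so the groups overlapped by that pair. Here and below, such counts of rats are a description, since their share over all probe sets was not computed. Means were 8.73 ± 0.32 (SD, n = 5) after pregnancy and 8.03 ± 0.29 (n = 5) in control, a difference of 0.70 (SE 0.18) or 1.62-fold (95% interval 1.24 to 2.12), with an adjusted p of 0.0786 by limma. The second-brightest probe set, 1369219_at, gave 0.52 (SE 0.13, adjusted p = 0.0757), with means of 8.29 ± 0.28 after pregnancy and 7.77 ± 0.21 in control, and again 4 of 5 pregnancy rats lay above all controls. The third probe set was never called present. In the authors' deposited table the second-brightest probe set had a log2 difference of 0.52 and an adjusted p of 0.0471, and it was the only 1 of the 23 probe sets under 0.05 there in any comparison. The fit behind that table is not described. The share of all probe sets under 0.05 in it was not computed here, so the count is a description only.

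The side of the threshold on which Tgfbr3 fell changed with single arrays and with array weights. Control replicate 5 held the highest control value on both detected probe sets, and without it the pregnancy difference was 0.81 (adjusted p = 0.0448) on the brightest and 0.59 (adjusted p = 0.0472) on the second, in a fit where 1.63% of all probe sets passed. Pregnancy replicate 2 was the lowest of its group, and without it the second probe set passed as well (0.63, adjusted p = 0.0489), where 0.145% of all did, while the brightest stood at 0.81 (adjusted p = 0.0854). With arrays weighted by their fit, the values were 0.76 (adjusted p = 0.0451) and 0.58 (adjusted p = 0.0434), where 3.72% of all passed. The weights were lowest for control replicates 2, 5 and 6 (0.53, 0.52 and 0.49), against 0.89 to 1.45 for the other arrays. The weighted fit is therefore not separate from the fits without control replicate 5 or 2. Without the 4 lymphoid-rich arrays (control replicates 1, 4 and 5 and pregnancy replicate 3) the difference was 0.70 (adjusted p = 0.248), the same size as with them. Here and below, that fit had control replicates 2 and 6 as its only controls. In it 0.0322% of all probe sets passed after pregnancy and 0% after hormone. Without the 3 muscle-rich arrays (pregnancy replicates 7 and 9 and hormone replicate 4) the Tgfbr3 difference was 0.55 (adjusted p = 0.592), where 0% of all probe sets passed.

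After hormone, Tgfbr3 was between both other groups, at 8.26 ± 0.32 (SD, n = 5). Its difference from control was 0.23 (SE 0.18, adjusted p = 0.470) on the brightest probe set and 0.27 (SE 0.13, adjusted p = 0.255) on the second. Pregnancy exceeded hormone by 0.47 (SE 0.18, 95% interval 0.08 to 0.86, unadjusted p = 0.0203, adjusted p = 0.443), and 4 of 5 pregnancy rats lay above all hormone rats. The order of the means was therefore pregnancy, hormone, control, and no pair of neighbours differed beyond the adjusted threshold.

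Tgfbr2, the ligand-binding kinase that starts the signal, has 1 probe set, 1369653_at. It read 9.37, 8.87, 9.36, 9.28 and 9.72 after pregnancy, 8.85, 9.26, 9.01, 8.84 and 8.79 after hormone, and 8.27, 8.97, 8.74, 9.46 and 8.39 in control. Control replicate 5 exceeded 4 of the 5 pregnancy rats, while the other 4 controls lay below 4 of them. The pregnancy difference was 0.55 (SE 0.20) or 1.46-fold (95% interval 1.09 to 1.97), with an adjusted p of 0.144. Without control replicate 5 it was 0.72 (adjusted p = 0.0494), so this gene too passed once that rat was left out, where 1.63% of all probe sets passed. Over all fits without 1 rat the difference lay between 0.43 and 0.72 (adjusted p from 0.0494 to 0.31). Hormone minus control was 0.18 (SE 0.20, adjusted p = 0.616), and pregnancy minus hormone was 0.37 (SE 0.20, adjusted p = 0.555), with 4 of 5 pregnancy rats above all hormone rats.

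Tgfbr1, the type I receptor kinase that phosphorylates Smad2 and Smad3, was read unevenly by its pair of detected probe sets. On the brightest, 1376636_at, pregnancy rats had 10.73, 10.79, 10.61, 10.53 and 10.52, hormone rats 10.24, 10.18, 10.74, 10.34 and 10.87, and control rats 10.61, 10.19, 10.56, 10.26 and 10.39. The pregnancy group was the tightest of the 3 (SD 0.12, against 0.31 in hormone and 0.18 in control), and all groups overlapped. Pregnancy minus control was 0.23 (SE 0.13, adjusted p = 0.299). On 1369504_at it was 0.61 (SE 0.18, adjusted p = 0.101), with pregnancy rats at 7.18, 6.94, 7.08, 7.25 and 7.21 and control rats at 6.08, 6.39, 6.63, 7.18 and 6.33. Control replicate 5 was again the high control, and without it that probe set passed (0.77, adjusted p = 0.0355), where 1.63% of all did. Over all fits without 1 rat its difference lay between 0.5 and 0.77 (adjusted p from 0.0355 to 0.226). That probe set also gave the gene's widest gap between exposures, 0.52 for pregnancy minus hormone (SE 0.18, unadjusted p = 0.0123, adjusted p = 0.423), and hormone minus control was 0.09 (SE 0.18, adjusted p = 0.788).

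**Figure D2:**
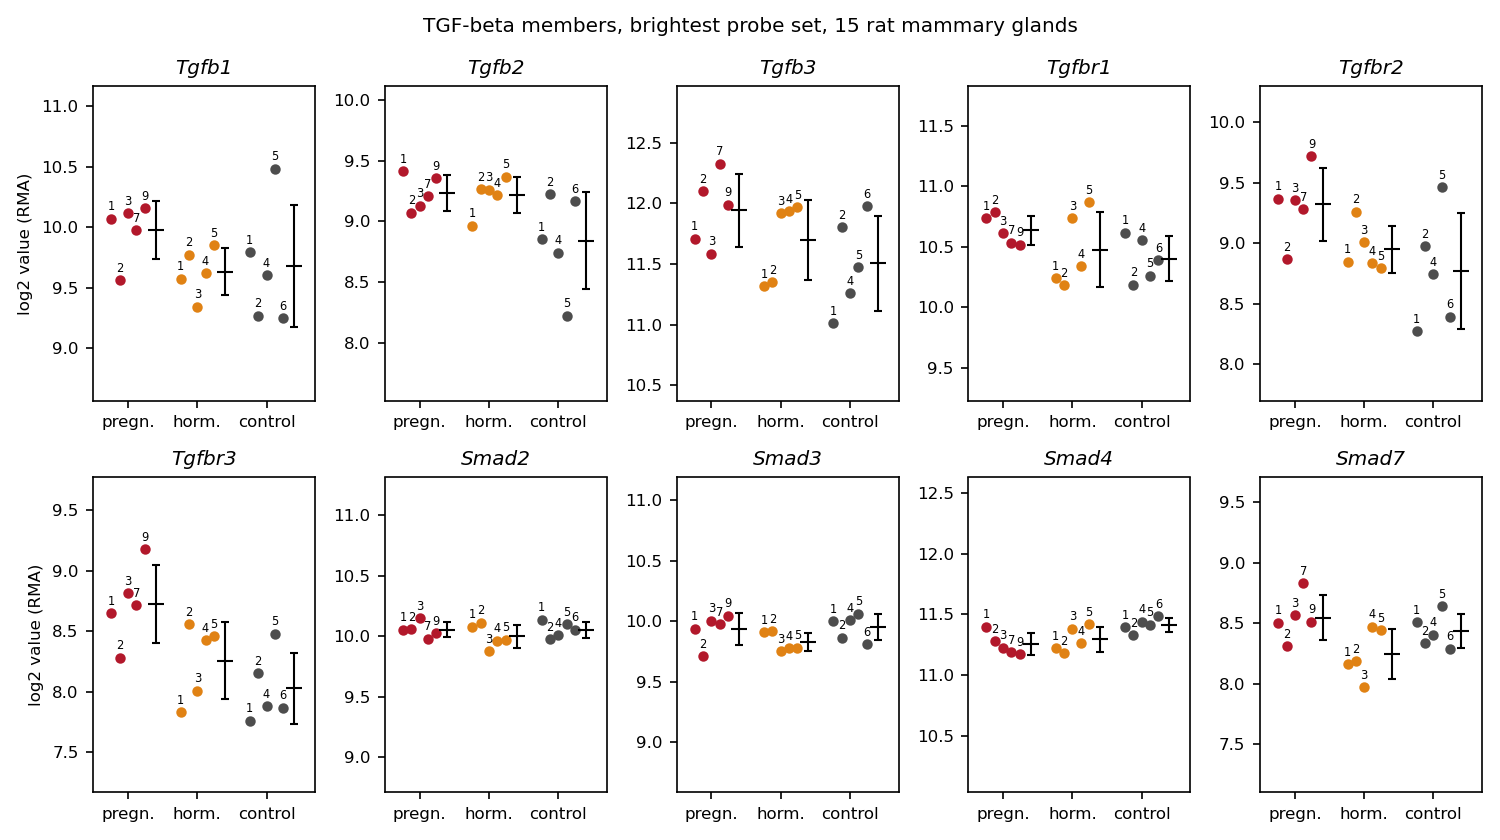
Log2 values (y axis) of each gene's brightest probe set in every rat, with pregnancy (red), hormone (orange) and control (grey) from left to right; small numbers name the replicate, and the bar beside each group is the mean ± SD of 5 rats. All panels have the same height in log2 units, and control replicate 5 stands above the other controls for Tgfb1, Tgfbr2, Tgfbr3, Smad3 and Smad7 and below them for Tgfb2.

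Tgfb2, the ligand that needs betaglycan most, was at about the same level after both exposures. Probe set 1387172_a_at read 9.41, 9.07, 9.13, 9.21 and 9.36 after pregnancy, 8.97, 9.27, 9.26, 9.22 and 9.37 after hormone, and 8.85, 9.23, 8.74, 8.22 and 9.17 in control. Controls were spread widely (SD 0.40, against 0.15 after pregnancy and 0.15 after hormone), and control replicates 2 and 6 lay within the range of both exposed groups. Pregnancy minus control was 0.39 (SE 0.15, adjusted p = 0.163) and hormone minus control 0.37 (SE 0.15, adjusted p = 0.200). Pregnancy minus hormone was 0.02, with a 95% interval of -0.31 to 0.35.

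The 3 other Tgfb2 probe sets called present on at least 14 of 15 arrays were also higher than control in both groups, by 0.34 to 0.44 after pregnancy and by 0.25 to 0.48 after hormone, and none passed; the gene's remaining probe set had a present call on 1 array. These estimates rest on the low controls: without control replicate 5, the Tgfb2 differences were 0.24 after pregnancy (adjusted p = 0.218) and 0.22 after hormone (adjusted p = 0.339). Without the 4 lymphoid-rich arrays they were 0.07 after pregnancy (adjusted p = 0.819) and 0.02 after hormone (adjusted p = 0.973). The only controls left in that fit were replicates 2 and 6, at 9.23 and 9.17 the highest controls on the brightest probe set. The mean of both exposures minus control was 0.38 (SE 0.13, adjusted p = 0.113), and it passed without control replicate 2 (0.48, adjusted p = 0.0373) and under array weights (0.39, adjusted p = 0.0486), where 11.2% and 8.89% of all probe sets passed.

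Tgfb3, the ligand that rises at weaning in mice, has 1 probe set, 1367859_at. It read 11.71, 12.10, 11.59, 12.33 and 11.99 in the pregnancy rats, 11.31, 11.35, 11.92, 11.93 and 11.97 in the hormone rats, and 11.01, 11.80, 11.26, 11.48 and 11.98 in the control rats. Controls spanned almost 1 log2 unit, and control replicate 6 lay above 2 of the 5 pregnancy rats. Hormone rats fell into a low pair (replicates 1 and 2) and a high trio. Pregnancy minus control was 0.44 (SE 0.20, 95% interval 0.01 to 0.86, adjusted p = 0.219), hormone minus control 0.19 (SE 0.20, adjusted p = 0.589) and pregnancy minus hormone 0.25 (SE 0.20, adjusted p = 0.706).

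The Tgfb3 differences moved in fits that took account of lymph node or skeletal muscle markers. Control replicates 1, 4 and 5, rich in lymph node markers, held the 3 lowest control values of Tgfb3. Their muscle marker means were -1.68, -2.12 and -0.12, below those of control replicates 2 and 6 (0.22 and 0.78). Without the 4 lymphoid-rich arrays pregnancy minus control was 0.14 (adjusted p = 0.780) and hormone minus control turned to -0.19 (adjusted p = 0.847). With the lymph node markers as a covariate the values were 0.30 (adjusted p = 0.263) and -0.13 (adjusted p = 0.807). With the muscle markers as a covariate they were 0.34 (adjusted p = 0.321) and 0.1 (adjusted p = 0.773). Without the muscle-rich arrays they were 0.29 (adjusted p = 0.705) and 0.13 (adjusted p = 0.76). Luminal epithelium markers were low on control replicates 1 and 4 (-0.34 and -0.40) and hormone replicates 1 and 2 (-0.54 and -0.47). Those hormone rats, the low Tgfb3 pair, had lymph node means of -0.99 each. The part of the luminal markers in Tgfb3 was not tested.

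Tgfb1, the ligand made widely by immune and stromal cells, is read by a detected probe set, 1370082_at, and by another that was never called present. The detected probe set read 10.07, 9.56, 10.12, 9.98 and 10.16 after pregnancy, 9.57, 9.77, 9.34, 9.62 and 9.85 after hormone, and 9.80, 9.27, 9.61, 10.48 and 9.25 in control. Control replicate 5 was the highest of all 15 arrays, and the control SD of 0.51 exceeded those of the pregnancy (0.24) and hormone (0.20) groups. Pregnancy minus control was 0.30 (SE 0.20, adjusted p = 0.391), and without control replicate 5 it was 0.50 (adjusted p = 0.0769). Hormone minus control was -0.05 (SE 0.20, 95% interval -0.47 to 0.38, adjusted p = 0.907).

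Without the 4 lymphoid-rich arrays, Tgfb1 was 0.68 higher after pregnancy (adjusted p = 0.172) and 0.38 higher after hormone (adjusted p = 0.698), so the hormone value changed its sign and the pregnancy value more than doubled in log2 units. Pregnancy minus hormone, whose means use only 1 of those 4 arrays, was 0.34 (SE 0.20, adjusted p = 0.588) with all arrays and 0.31 (SE 0.13, adjusted p = 0.350) without them. The controls enter its SE and p through the spread shared by all groups. In that comparison 4 of 5 pregnancy rats lay above all hormone rats.

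**Figure D3:**
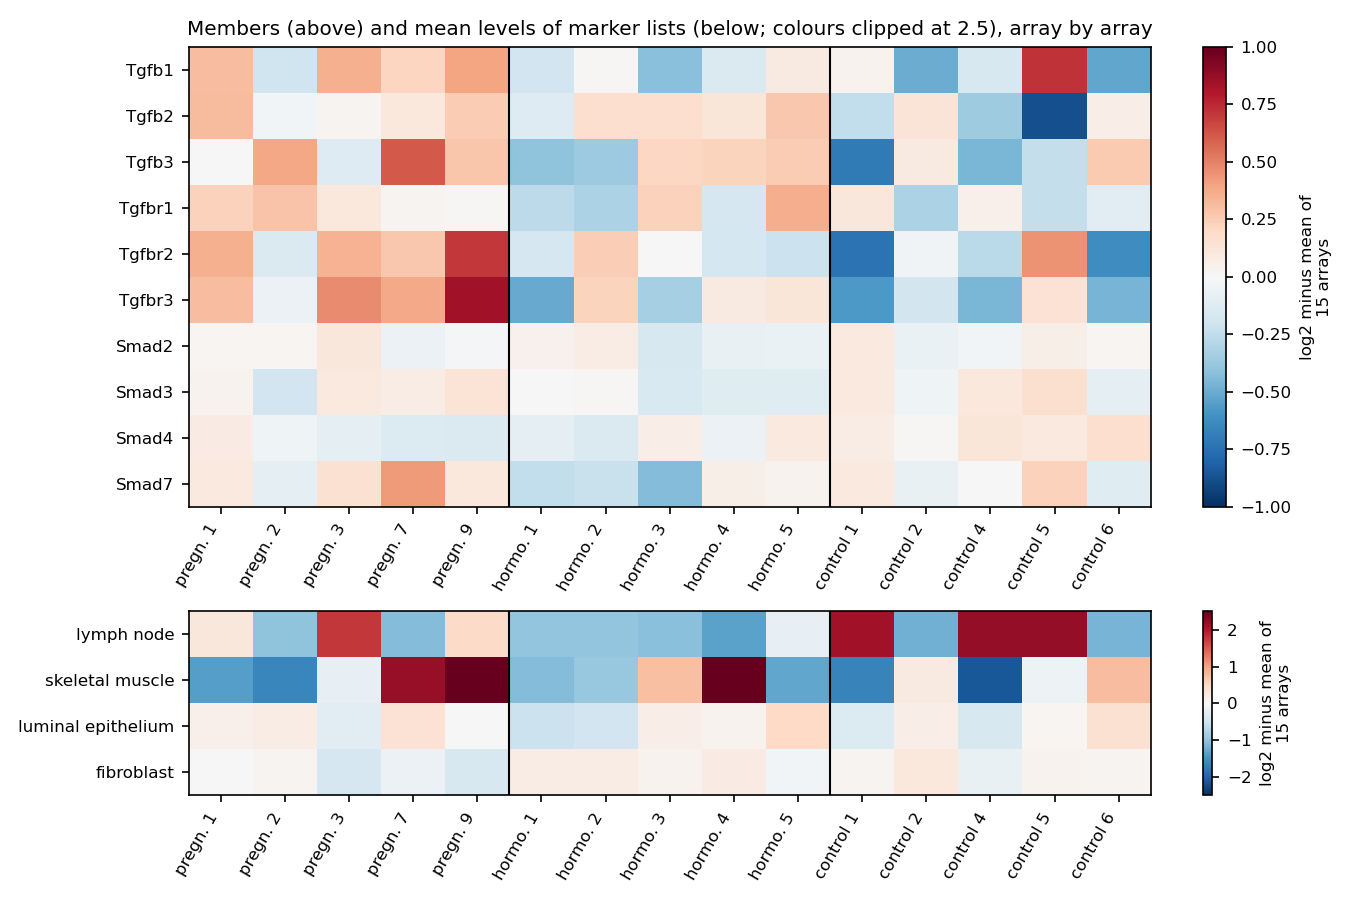
Above, the log2 value of each gene's brightest probe set minus its mean over the 15 arrays (colour scale from -1 to 1), array by array, with pregnancy, hormone and control from left to right. Below, the mean of 4 marker lists on the same arrays (scale clipped): Tgfb1 and Tgfb2 have their highest and lowest values on control replicate 5, one of the arrays richest in lymph node markers.

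Smad2 and Smad3, the receptor-activated Smads, had narrow ranges and small differences. Smad2 (1368214_at) read 10.05, 10.06, 10.15, 9.98 and 10.03 after pregnancy, 10.08, 10.11, 9.87, 9.96 and 9.97 after hormone, and 10.14, 9.97, 10.01, 10.10 and 10.05 in control. All 3 groups overlapped. The 95% interval of the pregnancy difference was -0.12 to 0.12 and that of the hormone difference -0.17 to 0.07. For Smad3 (1390827_at) the pregnancy rats had 9.94, 9.71, 10.005, 9.98 and 10.04, the hormone rats 9.91, 9.91, 9.75, 9.78 and 9.78, and the control rats 9.9998, 9.86, 10.01, 10.06 and 9.81. Smad3 was at -0.02 after pregnancy (SE 0.07, adjusted p = 0.918) and at -0.12 after hormone (SE 0.07, adjusted p = 0.333), where 3 of 5 hormone rats lay below all controls. Its other probe set was never called present.

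Smad4, the common partner of the receptor-activated Smads, was lower than control after both exposures on its brightest probe set, 1386984_at. That probe set read 11.40, 11.28, 11.22, 11.19 and 11.17 in the pregnancy rats, 11.22, 11.18, 11.38, 11.26 and 11.42 in the hormone rats, and 11.40, 11.33, 11.44, 11.41 and 11.49 in the control rats. In the pregnancy group 4 of 5 rats lay below every control, with replicate 1 inside the control range. The differences were -0.16 after pregnancy (SE 0.06, adjusted p = 0.156) and -0.12 after hormone (SE 0.06, adjusted p = 0.275).

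The 3 Smad4 probe sets did not read alike. The dimmest, 1378223_at, was at -0.40 after pregnancy (SE 0.14, adjusted p = 0.138) and at -0.45 after hormone (SE 0.14, adjusted p = 0.156), and its hormone value passed without control replicate 2 (-0.53, adjusted p = 0.0489) and under array weights (-0.56, adjusted p = 0.0435), fits in which 6.07% and 4.43% of all probe sets passed. The highest values of that probe set, 8.93, 9.04 and 8.75, were those of control replicates 1, 4 and 5, and without the 4 lymphoid-rich arrays the differences were -0.15 after pregnancy and -0.11 after hormone. The middle probe set, 1367910_at, had the opposite sign after pregnancy, 0.11 (SE 0.10, adjusted p = 0.521), and was at -0.15 after hormone. On it the pregnancy rats, at 10.18, 10.04, 10.22, 10.23 and 10.30, did not overlap with the hormone rats, at 9.80, 9.999, 9.93, 9.90 and 10.02. That gap of 0.26 (SE 0.10, unadjusted p = 0.0200 by limma) had an adjusted p of 0.443. In that comparison 0.00322% of all probe sets passed and 9.96% had an unadjusted p under 0.05. The share of all probe sets without overlap was not computed, so the separation is a description only. Where each probe set lies on the transcript is not given in the sources used here.

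Smad7, the inhibitory Smad and itself a target of the pathway, had a wider gap between the exposures than between either of them and control. Its brightest probe set, 1368896_at, read 8.51, 8.31, 8.57, 8.83 and 8.51 after pregnancy, 8.16, 8.19, 7.97, 8.47 and 8.44 after hormone, and 8.51, 8.33, 8.41, 8.64 and 8.29 in control. The control mean, 8.44, lay between those of the pregnancy (8.55) and hormone (8.25) groups, and 4 of 5 pregnancy rats were above all hormone rats. Pregnancy minus hormone was 0.30 (SE 0.11, 95% interval 0.06 to 0.53), with the smallest p of the 10 genes in that comparison (unadjusted p = 0.0160, adjusted p = 0.432). Pregnancy minus control was 0.11 (SE 0.11, adjusted p = 0.570) and hormone minus control -0.19 (SE 0.11, adjusted p = 0.328).

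A dimmer Smad7 probe set, 1368897_at, also present on all 15 arrays, gave wider differences. Pregnancy rats had 6.54, 6.11, 6.58, 7.19 and 6.99, hormone rats 5.35, 5.76, 5.48, 6.15 and 6.38, and control rats 5.22, 5.80, 5.69, 6.99 and 5.67. Control replicate 5 stood more than 1 log2 unit above the other 4 controls. Pregnancy minus control was 0.81 (SE 0.30, adjusted p = 0.148), and without that rat it was 1.09 (adjusted p = 0.0465), where 1.63% of all probe sets passed. Over all fits without 1 rat it lay between 0.64 and 1.09 (adjusted p from 0.0465 to 0.309). Pregnancy minus hormone, which does not use the controls' mean, was 0.86 (SE 0.30, unadjusted p = 0.0118, adjusted p = 0.419). The remaining probe set had a present call on 2 of 5 control arrays and on no other array.

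**Figure D4:**
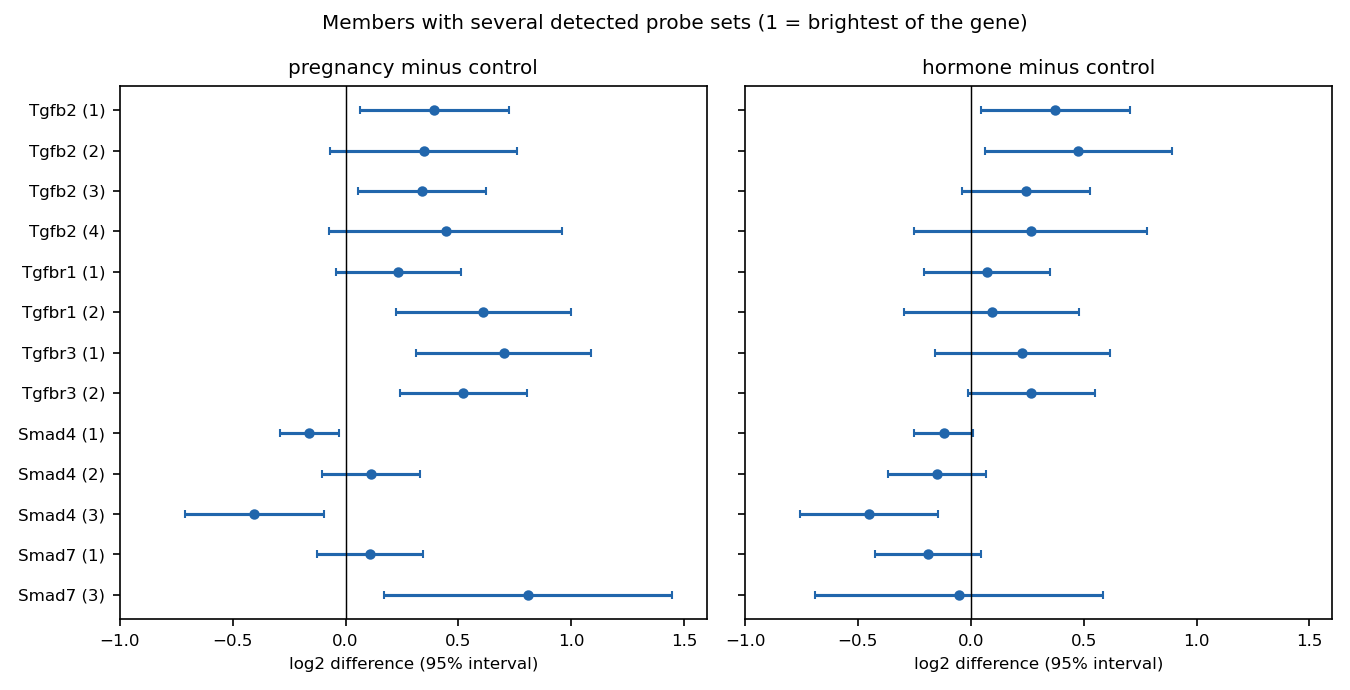
Log2 differences (x axis) for every probe set called present on at least 14 arrays, in genes that have several such probe sets (rows, numbered from the brightest), for pregnancy minus control and hormone minus control; bars are 95% intervals from limma, with 5 rats per group. The Tgfb2 and Tgfbr3 probe sets lie on the same side of 0, and the Smad4 probe sets do not: after pregnancy they are at -0.16, 0.11 and -0.40.

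Other genes of the pathway were taken from 7 lists by role, with 131 genes listed and 117 measured, 1 probe set per gene. After pregnancy 45 were higher and 72 lower than control, with a median of -0.06 and 0 past the threshold. After hormone 64 were higher and 53 lower, with a median of 0.02, and 1 fell. That gene was A2m, which encodes alpha-2-macroglobulin, a protease trap of plasma that also binds TGF-beta: it had 5.27 ± 0.17 after hormone (SD, n = 5) with no present call, and 6.62 ± 0.34 in control (n = 5) with 5 of 5 present, an estimated difference of -1.35 (SE 0.17, adjusted p = 0.0241). Its hormone level was not told from background, and the call was lost without the 4 lymphoid-rich arrays (-1.04, adjusted p = 0.264) and without control replicate 4 or 5 or hormone replicate 1, 2, 3 or 4 in turn (adjusted p between 0.00827 and 0.119 over all fits without 1 rat). For the mean of both exposures 57 were higher and 60 lower than control, and A2m again was the 1 that fell (-0.91, adjusted p = 0.0411). Between the exposures 41 were higher and 76 lower after pregnancy, with 0 past the threshold.

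The members' neighbours upstream, the latent complex and its activators, were lower after pregnancy in 12 of 16 genes (median -0.15), and none passed. Fbn1, fibrillin-1, the microfibril protein that holds latent TGF-beta in the matrix, had 12.11 ± 0.43 after pregnancy (SD, n = 5) and 12.82 ± 0.07 in control (n = 5), a difference of -0.71 (SE 0.17, adjusted p = 0.0697). The fibroblast markers, 9 of 9 measured and present on all arrays, spanned -0.42 to 0.06 after pregnancy and -0.19 to 0.26 in control, and their part in the Fbn1 value was not tested. Mmp9, a gelatinase that can release latent ligand, had a present call on 5 of 5 pregnancy and 0 of 5 hormone arrays, with an estimated difference of 1.86 (SE 0.42, adjusted p = 0.342). Its hormone level was not told from background, so the size is an estimate only. The SD of Mmp9 was 0.35 after pregnancy and 0.16 after hormone, against 1.20 in control. Its adjusted p lay under 0.05 in a fit of the pregnancy and hormone groups alone (0.00181, where 0.0193% of all probe sets passed). The same held without the 4 lymphoid-rich arrays (0.000118, where 0.0129% of all passed). It lay between 0.144 and 0.74 without 1 rat at a time and at 0.991 without the muscle-rich arrays.

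The list of other receptors of the family was higher after pregnancy in 6 of 8 genes (median 0.13) and after hormone in 7 of 8 (median 0.13), and none passed. Acvr1, a type I receptor for activins and bone morphogenetic proteins, was at 0.41 after pregnancy (SE 0.12, adjusted p = 0.0944), and Acvrl1, the type I receptor of endothelium, at -0.35. Other ligands of the family were higher in 10 of 15 genes after pregnancy and in 10 of 15 after hormone, with medians of 0.08 each. Gdf11 was at -0.35 and Gdf15, a stress-induced ligand, at 0.26 after pregnancy. Among binding proteins, Chrd, chordin, which traps bone morphogenetic proteins, was at -0.40 for pregnancy minus hormone.

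Downstream, the other Smads and Smad regulators were split after pregnancy (9 higher, 11 lower, median -0.04). Dab2, an adaptor that links the receptors to Smads, was at 0.22 after pregnancy (adjusted p = 0.0956), and the ubiquitin ligase Smurf2 at -0.19 for pregnancy minus hormone. In the non-Smad branch 7 of 9 genes were lower after pregnancy (median -0.14), among them Tab2, an adaptor of the kinase TAK1, at -0.23, while Xiap was 0.49 higher for pregnancy minus hormone. Of 37 nuclear partners and target genes, 25 were lower after pregnancy (median -0.09) and 18 after hormone (median 0.0024). Postn, periostin, a matrix protein induced by TGF-beta, had 13.44 ± 0.29 after pregnancy (SD, n = 5) and 13.86 ± 0.04 in control (n = 5), a difference of -0.42 (SE 0.10, adjusted p = 0.0739), and Col1a2, a chain of type I collagen, was at -0.31 for pregnancy minus hormone (SE 0.07, adjusted p = 0.342). None of the genes in these 3 lists passed in any comparison.

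**Figure D5:**
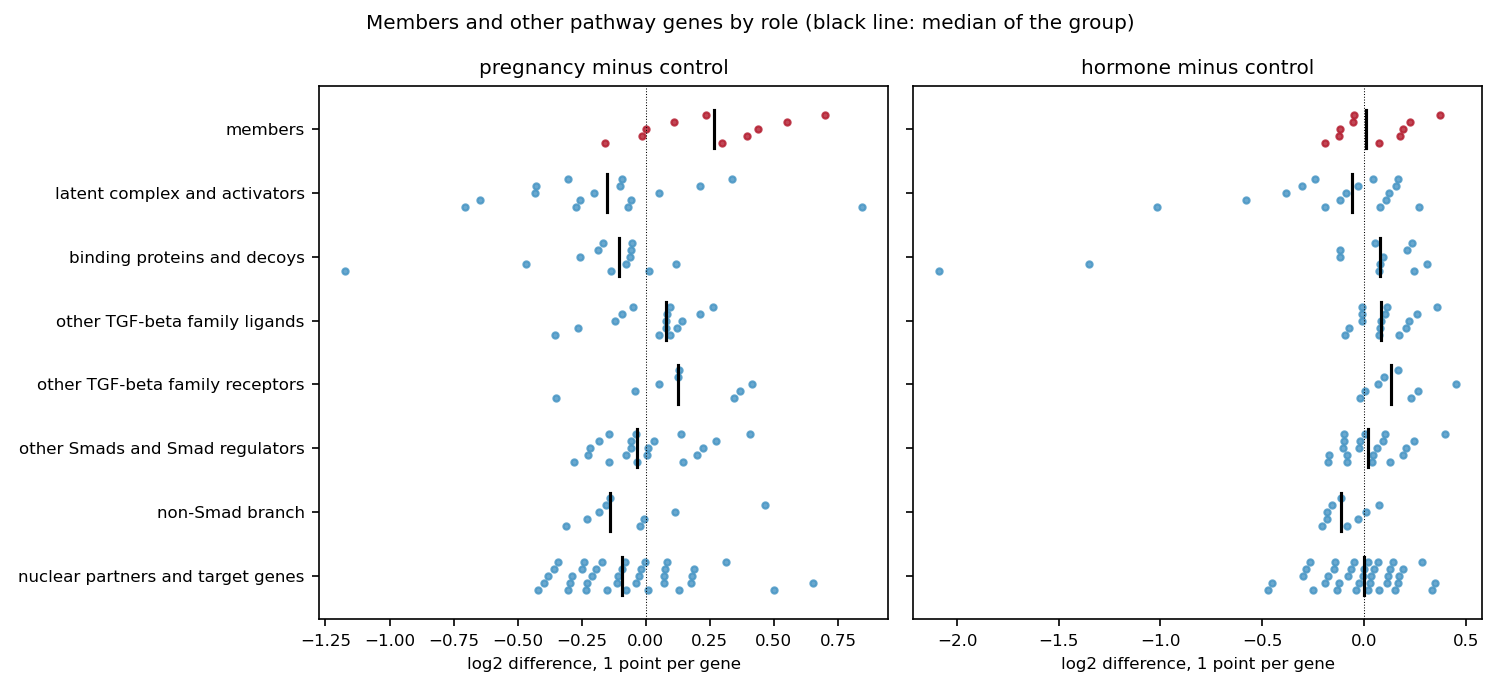
Log2 differences (x axis) for pregnancy minus control and hormone minus control, with 1 point per gene: the 10 genes described here (red) and the other measured pathway genes by role (blue), with the median of each group as a black line. The medians after pregnancy are 0.27 for the 10 genes and between -0.15 and 0.13 for the 7 other groups; the lowest hormone point is Grem1 at -2.09 (adjusted p = 0.168), named after its value was seen.

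The genes that varied most like the members were searched among 9927 genes present on all arrays, by Pearson's r over the 15 arrays after each group's mean was taken out. Likeness is a description, since all genes share the same arrays and their tissue makeup. Each r given is also among the highest of 9927, and how high such a search reaches for unrelated genes was not computed. Tgfb3 was most like Rap1gap, a GTPase-activating protein (r = 0.96, rho = 0.96, and r = 0.94 without the 2 arrays farthest from the median), Sh3bp4 (r = 0.95) and Igsf5 (r = 0.95). Tgfb1 was most like Stat6, the transcription factor of interleukin-4 signalling (r = 0.94, rho = 0.90, r = 0.92 without the 2 farthest), Sf1 (r = 0.93) and Stk24 (r = 0.93). Tgfb2 was most like Rasl12 (r = 0.92, rho = 0.78, r = 0.80 without the 2 farthest) and the beta-globin genes Hbbl1 and Hbb-bs (r = 0.92 each). Each ligand thus had a different set of nearest genes.

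Among the receptors, Tgfbr1 was most like Cggbp1 (r = 0.93, rho = 0.84) and Tgfbr3 most like Clip1 (r = 0.88, rho = 0.89). For the Smads, r with the nearest gene lay between 0.81 (Smad2 with Phf20) and 0.88 (Smad7 with Ywhah), with Smad3 nearest to Aagab-ps2 (r = 0.86) and Smad4 to Ifitm1 (r = 0.87).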

How the data were processed

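Total RNA (80 ng per rat) was labelled with NuGEN Ovation V2 reagents and hybridised to rat Affymetrix arrays, 1 per rat, per the labels' protocols. The values analysed are the authors' log2 expression levels, 1 per probe set and array. GCOS, RMA, MAS5 and affy are named, without versions, per the submitters' processing notes. The deposited table also holds MAS5 detection p-values and calls, and the authors' own log2 differences and adjusted p-values, whose fit is not described. The build and the date of the annotation were not stated. The same values stand in both deposited tables (largest difference 0). A further 15 per-sample columns, from arrays that match no labelled sample, were not used. Whether those arrays entered the authors' fit is not stated.

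After 57 control probe sets were left out, 31042 were tested without an intensity filter by limma 3.58.1 in R 4.3.3: a mean per group over all 15 arrays, empirical Bayes moderation with 12 residual and 2.70 prior degrees of freedom, two-sided contrasts and Benjamini-Hochberg adjustment, with 0.05 as the threshold. Tables and figures were made with Python 3.11.15, pandas 2.3.3, scipy 1.17.1 and matplotlib 3.10.9. The fit was tested on simulated data with independent noise for each probe set and array. Those data held no differences in tissue makeup and no outlying arrays, so the test does not cover the effect of either. Promoter windows came from RefSeq GRCr8, matched by symbol for 10 of 10 genes.

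Members are all probe sets of the 10 symbols. Of other pathway genes the text names those past the threshold and, in each of 7 role lists, the 2 with the smallest moderated F test p, and for each member the nearest gene by Pearson's r (3 for each ligand); the nearest gene of Tgfbr2 is not reported here. The members and lists were chosen with earlier results of these data known. Alternatives were the fit of 2 groups alone, median centring, lymph node or muscle markers as a covariate, fits without lymphoid-rich or muscle-rich arrays, array weights, a replicate block, only probe sets present on at least 1 array, the mean of a gene's probe sets, and leaving out each array. Rats were not paired by replicate number in the main fit.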

Additional observations from a re-analysis of the deposited data

Results flagged for a closer look

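Of 54 groups of 5 values examined (18 probe sets called present on at least 14 arrays, in 3 groups), 1 held a value far from the others. Hormone replicate 1 read 8.38 on the Tgfb2 probe set 1388011_a_at, while the other 4 hormone rats lay between 8.63 and 8.73. Chance gives such a value in about 1 of 20 groups (5%). The same rat was also the lowest of the hormone group on the brightest Tgfb2 probe set, at 8.97, and without it pregnancy minus hormone for the gene was -0.044.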

How the results depend on the processing

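Counts of members past the threshold were 0 in every comparison and setting except these: after pregnancy 1 under array weights (3.72% of all probe sets passed), and for the mean of both exposures 1 under array weights (8.89% of all). Without 1 rat at a time they were 0 to 2 after pregnancy (2 without control replicate 5: Tgfbr2 and Tgfbr3, where 1.63% of all passed). For the mean of both exposures they were 0 to 1 (1 without control replicate 2: Tgfb2, where 11.2% of all passed). For the mean of both exposures, 1 of 10 genes is near the share of all probe sets in these fits. Other pathway genes past the threshold after pregnancy numbered 1 with lymph node markers as a covariate (0.577% of all probe sets passed) and 1 without the 4 lymphoid-rich arrays (0.0322% of all). They numbered 3 under array weights (3.72% of all probe sets passed) and 0 to 5 without 1 rat (5 without control replicate 2, where 4.61% of all passed). After hormone they numbered 0 in the fit of 2 groups, with the lymph node covariate, without the lymphoid-rich or the muscle-rich arrays and with the replicate block, 4 under array weights (4.43% of all) and 0 to 3 without 1 rat (3 without control replicate 2, 6.07% of all). For pregnancy minus hormone the count was 1 in the fit of 2 groups (0.0193% of all) and 1 without the lymphoid-rich arrays (0.0129% of all), Mmp9. For the mean of both exposures it was 0 with either marker covariate, without the muscle-rich arrays and with the replicate block, 11 under array weights (8.89% of all) and 0 to 12 without 1 rat (12 without control replicate 2, 11.2% of all). Of 117 genes, these counts under array weights and without control replicate 2 are near or below the share of all probe sets. With the replicate block Tgfbr3 after pregnancy was at 0.63 (adjusted p = 0.377). Rats with the same number correlated at -0.317 to 0.415 (9 pairs, 3 over 0.1), and rats with other numbers at -0.707 to 0.782 (66 pairs, 22 over 0.1). With so few pairs and so wide a range, these values cannot decide whether the numbers pair the rats.

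Signs turned as follows, none past the threshold, and the cause was not tested. With the lymph node covariate: Tgfb1 0.29 and Tgfb3 -0.13 after hormone, Smad2 0.018 and Smad3 0.026 after pregnancy, Smad2 0.0038, Smad3 0.0004 and Smad7 0.014 for the mean of both, Tgfb2 1376425_at 0.014 and Smad4 1378223_at -0.1 for pregnancy minus hormone, and Tgfb2 1392382_at -0.12 and Smad7 1368897_at 0.063 after hormone. Without the lymphoid-rich arrays: Tgfb1 0.38, Tgfb3 -0.19, Tgfb2 1388011_a_at -0.075, Tgfb2 1392382_at -0.36 and Smad7 1368897_at 0.087 after hormone, Smad2 0.017, Smad3 0.079 and Tgfb2 1392382_at -0.085 after pregnancy, Tgfb3 -0.025, Smad2 0.002, Smad3 0.035 and Smad7 0.082 for the mean of both, and Smad4 1378223_at -0.037 for pregnancy minus hormone. Without the muscle-rich arrays: Tgfb2 -0.011 and its probe set 1388011_a_at -0.026 for pregnancy minus hormone, and Smad2 0.032 after pregnancy. With the replicate block: Tgfb2 -0.081, its probe set 1388011_a_at -0.083 and Smad4 0.034 for pregnancy minus hormone, and Smad2 0.03 after pregnancy. Under array weights: Tgfbr1 -0.035 and Smad7 1368897_at 0.078 after hormone. With the mean of a gene's probe sets: Smad3 0.14 after pregnancy and 0.041 for the mean of both, Smad4 0.09 for pregnancy minus hormone and Smad7 0.11 for the mean of both. Smad2 after pregnancy was 0.0087 with median centring and 0.015 with the muscle covariate.

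Without 1 rat at a time, ranges that crossed 0 were -0.16 to 0.15 for Tgfb1, -0.027 to 0.14 for Tgfbr1, -0.018 to 0.26 for Tgfbr1 1369504_at and -0.22 to 0.23 for Smad7 1368897_at after hormone, -0.024 to 0.02 for Smad2 and -0.05 to 0.041 for Smad3 after pregnancy, -0.044 to 0.06 for Tgfb2 and -0.037 to 0.099 for Smad4 1378223_at for pregnancy minus hormone, and -0.076 to 0.012 for Smad7 for the mean of both. Tgfbr3 after pregnancy stayed between 0.59 and 0.81 (adjusted p from 0.0448 to 0.203).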
